A study of Homo sapiens with 12 samples.

Results

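Catalase and the heme peroxidases, chosen by name, were followed in HepG2 cells, a human hepatocellular carcinoma line. The members were PXDN, PXDNL, MPO, LPO and EPX together with the catalase gene CAT, 6 of the 57500 genes in the count tables. RNA was sequenced in 12 libraries, 4 independent replicates each of wild-type cells (WT), of cells in which thiosulfate sulfurtransferase was silenced with an shRNA delivered by lentivirus (shTST), and of cells carrying a codon-optimized TST behind a CMV promoter in a lentiviral vector (overTST). The methods describe no cloning step for either engineered line, and the 12 libraries hold no line that carries an empty vector, so TST level and transduction cannot be told apart in a comparison with WT. All groups were grown in the same glycine-containing culture medium. The labels do not say whether replicates were separate transductions, and the p-values therefore measure the spread between these cultures.

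Heme peroxidases use a heme group to oxidize substrates with hydrogen peroxide. Myeloperoxidase (MPO) of neutrophils makes hypochlorous acid from hydrogen peroxide and chloride, eosinophil peroxidase (EPX) prefers bromide and thiocyanate, and lactoperoxidase (LPO) is secreted into milk, saliva and airway fluid. Peroxidasin (PXDN) is an extracellular matrix enzyme that makes hypobromous acid and so forms the sulfilimine crosslinks of collagen IV, and PXDNL is its relative. Catalase (CAT) is an abundant enzyme of liver peroxisomes that splits hydrogen peroxide into water and oxygen, and it belongs to a family unrelated in fold to the other 5. The study asked how mammalian cells make and use cyanide. It proposes peroxidases as sources of the oxidant that acts on glycine, with TST as the enzyme that turns cyanide into thiocyanate. At the protein level the paper found MPO and PXDN in HepG2 cells, preferentially in lysosomes. A broad inhibitor of peroxidases and an inhibitor of MPO each lowered cyanide in these cells. The question here is which of these enzymes HepG2 cells transcribed, and whether that differed between the lines. Protein and enzyme activity were not measured in these libraries.

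CAT was the only member with more than a few reads. Over the 12 libraries and 359610500 counts on genes, CAT had 27436 counts, EPX 17, LPO 9, MPO 7, PXDNL 4 and PXDN 1. The files place CAT on chromosome 11, from 34438925 to 34472062 on the plus strand of GRCh38, with 3347 exonic bases. Because it is the one member with a measurable transcript, the 241 bases just before its start are shown, at chr11:34438684-34438924 on the plus strand of GRCh38.p14, from RefSeq. The capitals mark CCAAT in either strand (CCAAT or ATTGG) and the GC box GGGCGG in either strand (GGGCGG or CCGCCC).

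CAT promoter: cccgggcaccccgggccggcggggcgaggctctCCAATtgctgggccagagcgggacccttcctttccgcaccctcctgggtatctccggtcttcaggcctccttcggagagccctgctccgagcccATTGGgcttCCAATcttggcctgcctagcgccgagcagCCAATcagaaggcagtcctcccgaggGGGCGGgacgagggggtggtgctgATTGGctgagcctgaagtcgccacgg

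The 241 bases shown held 5 CCAAT copies, which did not overlap the GC box, and the full 250 bases before the RefSeq start of CAT held the same number. Of the 250-base windows of 35116 promoters, 32% held at least 1 CCAAT copy and 0.319% held 5 or more. The GC box occurred once and was present in 42.6% of promoters, whereas TATAAA (or TTTATA), found in 10.7% of promoters, was not among the letters of this window. The GC content of the 250 bases was 68.8% for CAT against a median of 58% for all promoters. These matches are a description of the sequence.

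The TST label was checked first. TST was at 47.18 to 52.77 CPM (counts relative to library size, with library sizes scaled by TMM, the trimmed mean of M-values) in WT, 32.97 to 36.53 in shTST and 51.8 to 62.1 in overTST. It was lower in shTST than in WT (log2 fold change -0.52, SE 0.0549, adjusted p = 3.2e-06) and higher in overTST (0.24, SE 0.062, adjusted p = 0.00384), in edgeR's quasi-likelihood test with Benjamini-Hochberg adjustment. The transgene was codon-optimized, so its own transcripts need not be counted at the TST gene. Library totals ran from 22911380 to 45120508 counts and were lower in all 4 overTST libraries than in any WT library. The replicate 2 library of shTST had a count on 24354 genes against 21107 to 22906 in the other 11, and mitochondrially encoded genes took 6.907 to 11.98% of counts in WT, 6.843 to 8.655% in shTST and 10.84 to 11.73% in overTST.

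Peroxidasin was at the edge of detection. PXDN lies on chromosome 2, from 1631887 to 1744852 on the minus strand, with 11257 exonic bases, the longest exonic target of the 6 members. It had 0 counts in all 4 WT libraries, 1 count in shTST (replicate 2) and 0 in all 4 overTST libraries. A count of 0 over the WT group allows a level of up to 0.00192 RPKM (reads per kilobase of exonic length, relative to the library total), taking 3 counts as the limit, and over the overTST group 0.00263 RPKM. The single count in shTST corresponds to 0.000745 RPKM, with an exact Poisson 95% interval of 1.89e-05 to 0.00415. These limits and intervals cover counting error only. Among 1199 protein-coding genes with at least as many exonic bases as PXDN, 44 (3.67%) had at most 1 count in the 12 libraries, and among all 19737 protein-coding genes 3368 (17.1%) did.

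PXDNL, on chromosome 8 from 51319578 to 51809445 on the minus strand with 5238 exonic bases, had 4 counts. One lay in replicate 2 of WT and 3 in replicate 2 of shTST, and the other 10 libraries, including all of overTST, had 0. Its level over the 12 libraries was 0.00212 RPKM. With PXDN it makes up the peroxidasin branch of the family, and neither gene had a count in any overTST library. The overTST libraries also had the lowest totals, and so few counts cannot show a difference between groups.

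The 3 leukocyte and secretory peroxidases lie close together on chromosome 17. EPX spans 58192737 to 58205174 (plus strand, 2708 exonic bases), LPO 58218548 to 58268518 (plus strand, 6433 exonic bases) and MPO 58269856 to 58280935 (minus strand, 3526 exonic bases). MPO had 2 counts in replicate 1 of WT, 1 in replicate 1 of shTST, and 3 and 1 in replicates 1 and 2 of overTST, and 0 in the other 8 libraries. LPO had 4 counts over WT, 4 over shTST and 1 over overTST, with at most 2 in a library and none in 6 libraries. EPX was the most often seen of the 5, with 1 to 3 counts in every WT library, 0 to 4 in shTST and 0 to 3 in overTST. Its group totals were 6, 7 and 4. For each of the 3 genes the groups overlapped.

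None of the 5 heme peroxidases reached the count filter of any comparison (edgeR's filterByExpr), so none was in a fit. Two-sided exact permutation tests of their CPM over libraries gave p = 0.371 to 1 for the 15 gene-by-comparison pairs (1 after Benjamini-Hochberg adjustment over them), where 0.0286 is the smallest p that 4 against 4 libraries allow. No difference was detectable at this depth, and at a handful of counts a large relative change would not be seen. Summed over the 5 genes, the counts were 5, 4, 3 and 1 in WT, 3, 9, 2 and 2 in shTST, and 6, 2, 1 and 0 in overTST. The library with 9 is replicate 2 of shTST, the one with counts on the most genes. Without it the sum over all libraries is 29 counts in place of 38, and its part in the low counts was not tested.

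**Figure D1:**
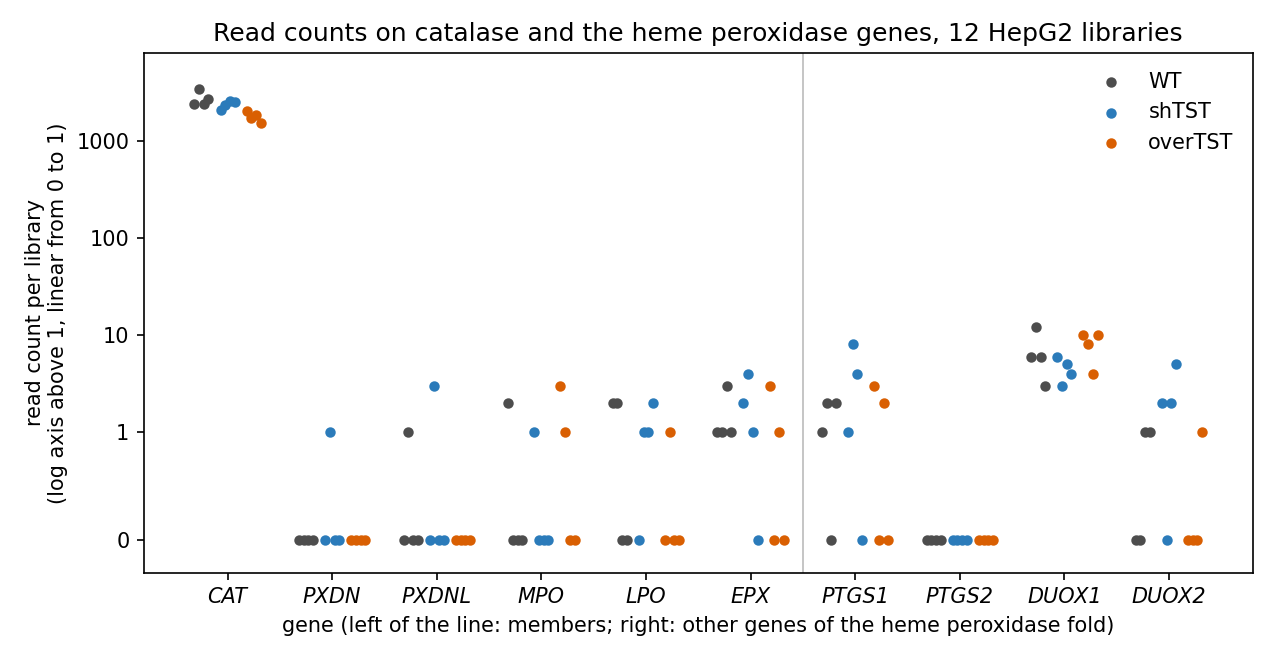
Read counts per library (log axis above 1) for the 6 members and for 4 other genes of the heme peroxidase fold, with 1 point per library coloured by group. CAT sits between 1519 and 3407 counts in every library, whereas no other member exceeds 4.

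Per exonic base, CAT exceeded each of the others by ratios from 1306 to 92280. Over the 12 libraries CAT stood at 22.8 RPKM (95% Poisson interval 22.5 to 23.1). The ratio of CAT to EPX was 1306 (interval 816 to 2242), to MPO 4129 (2004 to 10270), to LPO 5859 (3087 to 12810), to PXDNL 10730 (4192 to 39400) and to PXDN 92280 (16560 to 3645000). These intervals are for counting error in the pooled counts and take no account of the spread between libraries. The order of the 5 low genes among themselves rests on 1 to 17 counts, and the intervals of neighbours in that order overlap.

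Few exonic bases of the 6 genes were shared with other genes. By the exon positions given with the counts, the exons of PXDN, MPO, EPX and CAT overlapped no exon of another gene. LPO shared 110 exonic bases (1.71%) with MKS1 on the opposite strand, and PXDNL shared 114 (2.18%) with an unnamed gene on the opposite strand. Whether the counting used strand is not stated in the sources used here, so reads in these stretches cannot be assigned with certainty. Of the windows of 50 bases along the longest coding transcript, 98.6% of those of PXDNL and 100% of those of the other 5 occurred in no transcript of another gene. The coding sequences predict 1479 residues for PXDN, 1463 for PXDNL, 745 for MPO, 712 for LPO, 715 for EPX and 527 for CAT.

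The neighbourhoods of the low genes differed in how much was transcribed. On its higher-coordinate side PXDN is followed by MYT1L, with 2 counts in all 12 libraries. MKS1, a ciliary gene, lies between EPX and LPO, 262 bases from EPX, and had 479 to 951 counts in each library, while LPO and EPX on either side of it had at most 2 and 4. CAT is flanked by ABTB2, with 687 to 1996 counts per library, and ELF5, with 3 to 21.

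The 4 other genes with a heme peroxidase domain given here also had few counts. The cyclooxygenase PTGS2 had none, and PTGS1 had 5 counts over WT, 13 over shTST and 5 over overTST, of which 8 fell in shTST replicate 2. The dual oxidases make hydrogen peroxide themselves: DUOX2 had 2, 9 and 1 counts over the 3 groups and DUOX1 27, 18 and 32. DUOX1, with the most counts of the 4 in each group, was at 0.0215 ± 0.00836, 0.0173 ± 0.00545 and 0.0363 ± 0.0137 RPKM (mean ± SD, n = 4) in WT, shTST and overTST. None of these 4 genes passed the count filter.

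Several defining markers of the cells that carry MPO and EPX had no count, while others did. The 8 hepatocyte markers were all present, with a summed level of 15490 to 22110 CPM over the 12 libraries. Of 8 neutrophil and myeloid markers, the granule genes ELANE, PRTN3 and CTSG had 0 counts in every library, and the summed level of 9.21 to 13.7 CPM came almost wholly from CSF3R, at 11.5 ± 1.49 CPM in WT, 10.7 ± 0.651 in shTST and 10.51 ± 1.07 in overTST. Of 7 eosinophil markers, PRG2, PRG3, RNASE3, CLC and SIGLEC8 had 0 counts and RNASE2 had 39, 43 and 27 over WT, shTST and overTST, with a summed level of 0.0423 to 0.634 CPM. Endothelial and mesenchymal markers summed to 24.1 to 28.5 CPM in WT, 19.2 to 21.6 in shTST and 19.7 to 21.8 in overTST, with LUM at 0 in every library and most of the level from PDGFRB (21.8 ± 1.6, 16.6 ± 0.893 and 16.3 ± 1.07 CPM).

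Catalase was transcribed at a similar level in all 12 libraries. The counts on CAT were 2364, 3407, 2391 and 2700 in WT, 2071, 2341, 2575 and 2498 in shTST, and 2024, 1705, 1841 and 1519 in overTST. On the TMM-scaled scale these were 72.7, 74.8, 81.1 and 82.8 CPM in WT, 74.1, 78.4, 74.6 and 82.8 in shTST, and 75.5, 72.2, 72.6 and 69.0 in overTST. The 3 groups overlapped on this scale. The lowest library was an overTST one, and the WT and shTST ranges nearly coincided. Group levels were 77.8 ± 4.88 CPM in WT, 77.5 ± 4.07 in shTST and 72.3 ± 2.66 in overTST (mean ± SD, n = 4), so that the coefficient of variation was 6.26%, 5.25% and 3.67%. In bulk RNA, fewer cells that express a gene and less RNA per cell cannot be told apart.

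By length-scaled level CAT ranked between 1866 and 2272 among all genes within a library, at the 89.2 to 92nd percentile of genes with a count. Its replicates were as tight as those of other genes of like abundance: the within-group SD of log2 CPM was 0.0744, against a median of 0.072 in the 1772 genes within 0.5 log2 CPM of it and 0.117 in all genes of the 12-library fit.

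Silencing TST left no detectable difference in CAT. The log2 fold change of shTST against WT was -0.0055 (SE 0.0517, 95% interval -0.107 to 0.0959, edgeR adjusted p = 0.956). For comparison, 16.1% of the 14584 genes tested were called at an adjusted p of at most 0.05 in this comparison, 6.69% higher and 9.4% lower. The sign of the CAT value turned positive with upper-quartile normalization and without 4 of the 8 libraries in turn.

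In overTST, CAT was lower than in WT by a log2 fold change of -0.10 (SE 0.0545, 95% interval -0.211 to 0.00253), which did not pass (edgeR adjusted p = 0.146). In this comparison 33.9% of 14421 genes were called, 15.7% higher and 18.2% lower. In the direct comparison of shTST with overTST the difference was 0.10 (SE 0.0524, adjusted p = 0.157), where 33% of 14883 genes were called. The 2 comparisons that include overTST share those 4 libraries. Of all genes tested, 34% had a lower log2 fold change than CAT in overTST against WT.

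Whether CAT was called in overTST depended on how transcript length was treated. Fold changes of all genes followed exonic length in this comparison: Spearman's rho across 14421 genes was -0.404 (a description over genes, which are not independent), against -0.09 for shTST with WT. Genes within the length class of CAT had a median log2 fold change of 0.0479, and 22.4% of these 2339 genes were lower than CAT. After a trend on length was removed within each library, CAT was -0.15 in overTST against WT (SE 0.0515, edgeR adjusted p = 0.0289) and 0.14 in shTST against overTST (adjusted p = 0.0382), both past the threshold. After a trend on GC content was removed instead, it was -0.08 (adjusted p = 0.257) and 0.04 (adjusted p = 0.61). Between shTST and WT no correction brought CAT past the threshold.

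Whether overTST stood apart in CAT level also depended on the scale. CAT was at 22.4, 22.6, 24.7 and 24.1 RPKM in WT, 22.5, 24.2, 22.7 and 25.8 in shTST, and 22.1, 20.5, 21.0 and 19.8 in overTST. RPKM is scaled here by the total count alone. The exonic length of CAT is constant, so between libraries its RPKM and TMM-scaled CPM differ only by the TMM factor. That factor was 0.953 to 0.9781 in overTST, 0.9727 to 1.032 in WT and 1.016 to 1.041 in shTST. In RPKM every overTST library lay below every WT and shTST library (two-sided exact permutation p = 0.0286 for each, the smallest possible with 4 against 4, and 0.0715 after Benjamini-Hochberg adjustment over the 15 such tests on CAT). Group means were 23.4 ± 1.14, 23.8 ± 1.53 and 20.9 ± 0.94 RPKM. In TPM, which divides by the summed length-scaled level of all genes, the means were 65.3 ± 4.8, 67.7 ± 5.89 and 51.7 ± 2.62, again without overlap of overTST with the other groups (exact permutation p = 0.0286 each). With mitochondrially encoded genes left out of the total, RPKM means were 25.7 ± 1.5, 25.8 ± 1.5 and 23.5 ± 1.07 and the groups overlapped (exact permutation p = 0.0857 for overTST against either). On TMM-scaled CPM the exact permutation test gave p = 0.143 for overTST against WT and 0.0857 for shTST against overTST. These tests on other scales were chosen after the data had been seen. The part of mitochondrial counts in the lower RPKM and TPM of overTST was not tested beyond these values. Nor was that of the length trend in its lower TPM. How many other genes also lay apart in RPKM or TPM was not counted. In edgeR, 33.9% of all genes were called in overTST against WT.

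**Figure D2:**
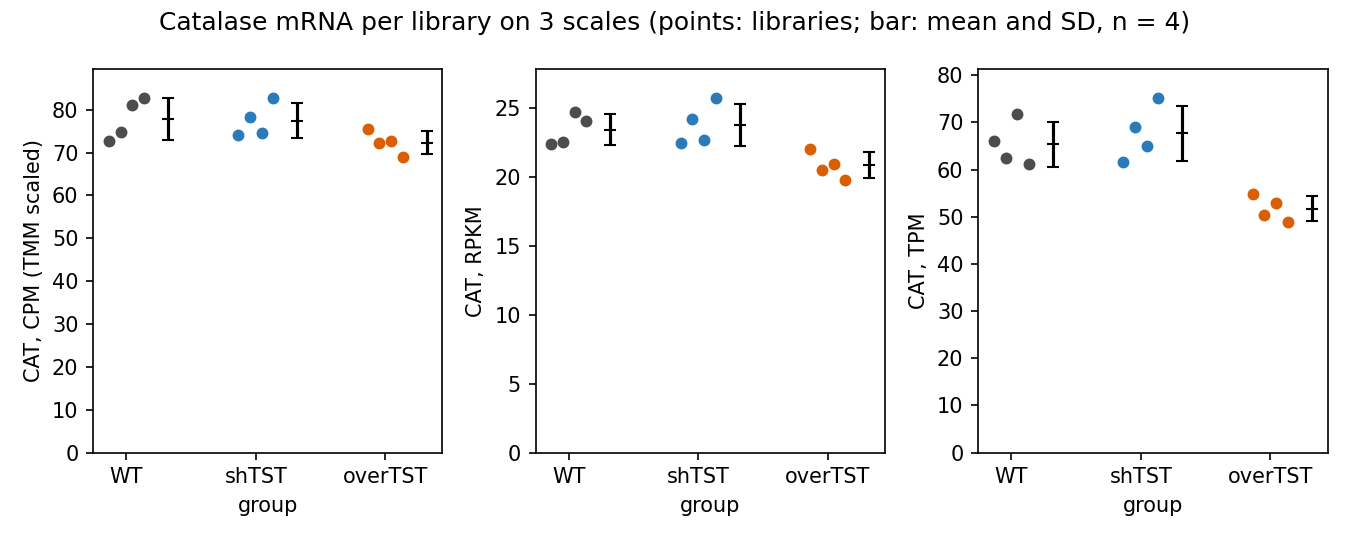
CAT in each library in TMM-scaled CPM, RPKM and TPM (points), with the group mean and SD beside them (n = 4 per group; all axes start at 0). The overTST points overlap those of WT and shTST in CPM and lie below them in RPKM and TPM.

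**Figure D3:**
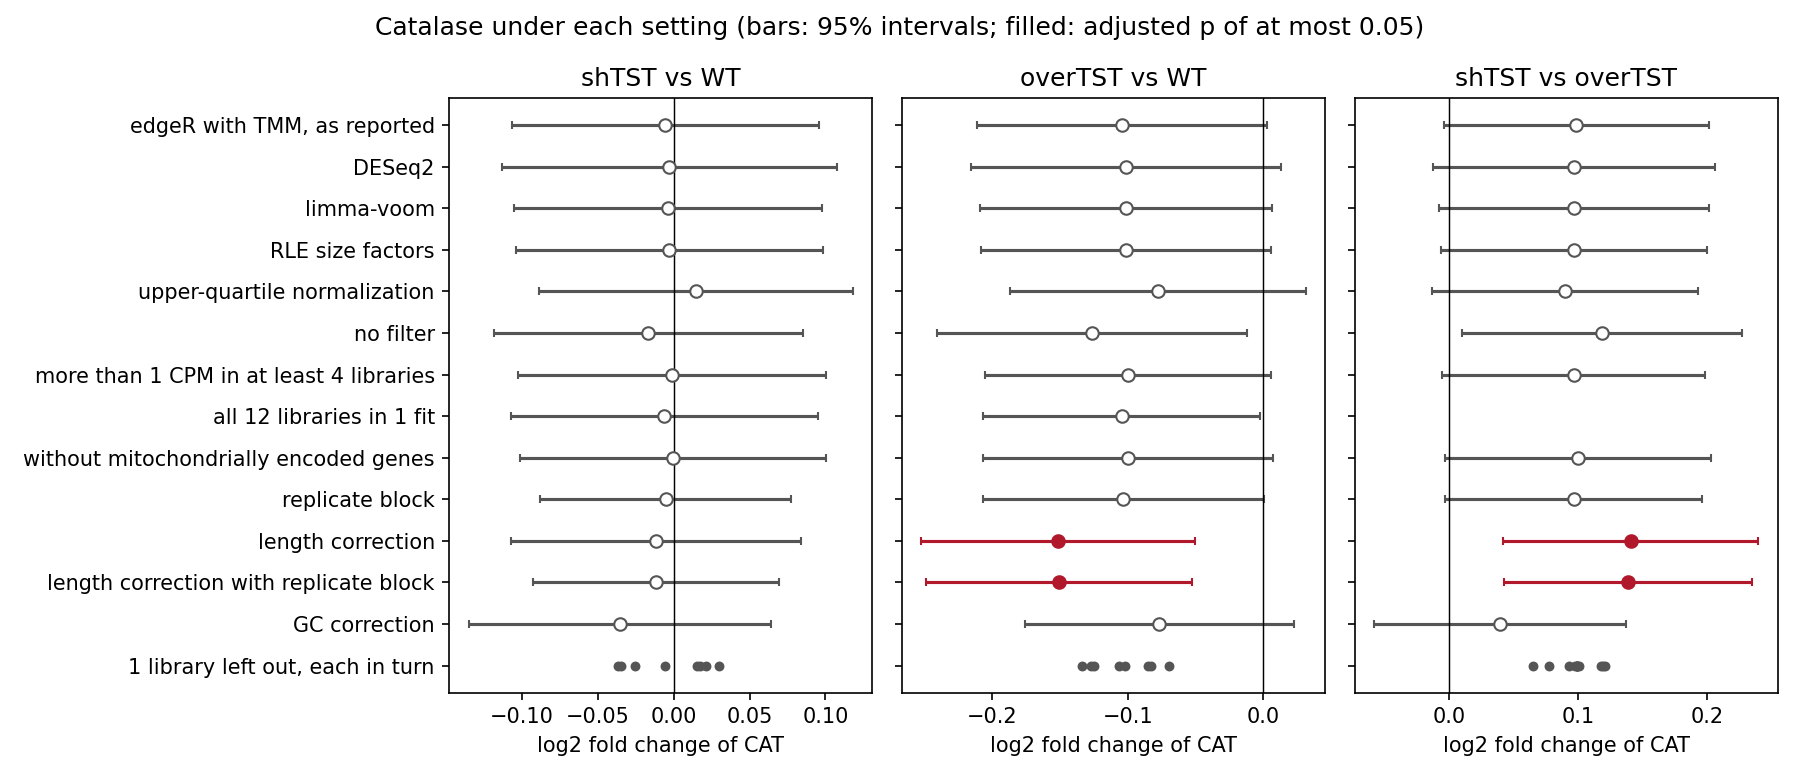
Log2 fold change of CAT in the 3 comparisons under each way of processing, with 95% intervals from the standard errors and filled points where the adjusted p was at most 0.05; the bottom line shows the values with 1 library left out. The filled points are the length-corrected values of the comparisons with overTST.

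The 3 genes below had the pattern most like CAT over the 12 libraries among 11530 genes compared by Pearson's r of log2 CPM. They were the calmodulin-dependent kinase gene CAMK1 (r = 0.871, and 0.864 after group means were removed), the Rag GTPase gene RRAGB (0.852 and 0.831) and the long non-coding gene ZMPSTE24-DT (0.834 and 0.824). The libraries share their depth and composition, so these values are a description. None of the 3 passed in either comparison with WT.

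Catalase works beside enzymes that remove peroxide without heme, the selenium- or cysteine-based glutathione peroxidases (GPX) and the peroxiredoxins (PRDX). Per length, 10 of these 14 genes exceeded CAT in WT. PRDX1 was highest at 527 ± 24.2 RPKM, followed by GPX2 at 241 ± 12.7 and PRDX5 at 215 ± 13.4, against 23.4 ± 1.14 for CAT. GPX7 (5.26 ± 0.27 RPKM) and GPX8 (0.0281 ± 0.0128) were below it, and GPX5 and GPX6 had no count. PRDX1, GPX2, GPX5, GPX6, GPX7 and GPX8 are named for their place in this order, after their values were seen.

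With TST silenced, none of the 11 tested genes of this list passed in edgeR (3 at an unadjusted p under 0.05, 1 with DESeq2 and 0 with limma-voom), and their median log2 fold change was -0.03 against 0.004 for all genes. In overTST 6 rose, 0 fell and 5 did not pass, so that 54.5% of the tested genes of the list were called beside 33.9% of all genes (15.7% higher). Those that rose with the smallest p were GPX3, the secreted plasma glutathione peroxidase, from 155 ± 7.17 to 190 ± 14.4 CPM (log2 fold change 0.29, SE 0.0546, edgeR adjusted p = 0.000204), and PRDX5, a peroxiredoxin of mitochondria, peroxisomes and cytosol, from 190 ± 12.2 to 232 ± 21.4 CPM (0.29, SE 0.06, adjusted p = 0.000626). The median of the list was 0.16 against 0.0019 for all genes tested. After length correction only GPX3 of the list still passed (0.23, adjusted p = 0.00103). With GC correction instead, all 6 that rose still passed (edgeR adjusted p from 0.000202 to 0.0133). In the direct comparison, 8 of the 11 (72.7%) were lower in shTST than in overTST, beside 16.1% of all genes. Fold changes followed exonic length in this comparison too (Spearman's rho 0.357 over 14883 genes). Calls of the list after length or GC correction were not counted for it.

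As a share of the summed RPKM of CAT, GPX1 to GPX8 and PRDX1 to PRDX6, a quantity chosen after the data had been seen, CAT made up 1.26, 1.33, 1.31 and 1.43% in WT, 1.31, 1.38, 1.26 and 1.46% in shTST and 1.25, 1.07, 1.07 and 1.01% in overTST. All 4 overTST libraries lay below all WT and shTST libraries. How many other shares of this kind would also set overTST apart was not counted. The overTST mean was 1.1 ± 0.104% and the WT mean 1.33 ± 0.0726%, a difference of -0.235 percentage points (two-sided exact permutation p = 0.0286, the smallest possible, and 0.0715 after the same adjustment). The shTST mean of 1.36 ± 0.0883% gave p = 0.657 against WT in the same exact permutation test. The share moves with both CAT and the peroxiredoxins and glutathione peroxidases, and with the length trend described above.

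The genes that make hydrogen peroxide, a substrate of catalase and MPO, were mixed. Of 29 listed, 16 were tested. In shTST the oxidase ERO1A, which makes peroxide while forming disulfides in the endoplasmic reticulum, rose (51.5 ± 1.8 to 57.7 ± 1.89 CPM, log2 fold change 0.16, edgeR adjusted p = 0.0227). The polyamine oxidase PAOX fell (1.2 ± 0.197 to 0.669 ± 0.242 CPM, -0.85, edgeR adjusted p = 0.0318). Over the whole list 3 of 16 (18.8%) passed, beside 16.1% of all genes. After GC correction neither ERO1A (edgeR adjusted p = 0.0728) nor PAOX (adjusted p = 0.0691) was called. Both were called after length correction (edgeR adjusted p = 0.009965 for ERO1A and 0.02698 for PAOX). No gene of the list passed in this comparison when replicate 4 of WT was left out, and 1 passed without replicate 1, 3 or 4 of shTST.

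In overTST, 3 rose and 2 fell of the 16, 31.2% beside 33.9% of all genes. Spermine oxidase SMOX rose from 45.8 ± 4.2 to 59.5 ± 2.73 CPM (log2 fold change 0.38, edgeR adjusted p = 5.96e-05). CYBA, the membrane partner of the NADPH oxidases, rose from 438 ± 32.1 to 552 ± 56.4 CPM (0.33, adjusted p = 0.000261). The third gene that rose was the superoxide dismutase SOD1 (0.23, adjusted p = 0.0022). The monoamine oxidase MAOA fell (21.2 ± 0.949 to 16.9 ± 1.64 CPM, -0.33, edgeR adjusted p = 0.00173). SOD1 no longer passed after length correction but did after GC correction (edgeR adjusted p = 0.00269).

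Some members of the source list were named after their values were seen. CYBA stood at 132 ± 8.98 RPKM in WT, whereas the catalytic subunits it pairs with were near 0: NOX4 had no count in any library, CYBB had 1 in WT and none elsewhere, and NOX1 had 16, 17 and 17 counts over WT, shTST and overTST. The xanthine oxidase gene XDH had no count. PIPOX, the peroxisomal sarcosine oxidase that yields glycine and hydrogen peroxide, was at 48.7 ± 1.15, 51.0 ± 1.87 and 49.8 ± 2.33 RPKM, above CAT in each group. It did not pass in shTST (0.04, SE 0.0426, adjusted p = 0.565) or overTST (0.10, SE 0.0499, adjusted p = 0.128). The glycolate oxidase HAO1, which makes peroxide and glyoxylate in hepatocyte peroxisomes, had 6, 1 and 3 counts over the 3 groups.

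Peroxins build the peroxisome that holds catalase. Of 17 listed, 14 were tested. In shTST, PEX11A, which takes part in peroxisome proliferation, rose (5.22 ± 0.91 to 6.8 ± 0.496 CPM, log2 fold change 0.38, edgeR adjusted p = 0.0285) and the other 13 did not pass, a share of 7.14% called beside 16.1% of all genes. PEX11A was called after length correction (edgeR adjusted p = 0.02905) but not after GC correction (adjusted p = 0.0539 in edgeR). No peroxin passed in this comparison without replicate 1 or 4 of WT or replicate 4 of shTST. In overTST, PEX10, a ubiquitin ligase of the import machinery, rose (37.4 ± 1.94 to 42.5 ± 2.61 CPM, 0.19, adjusted p = 0.0204). PEX5, the receptor that carries catalase into the peroxisome, fell (56.9 ± 1.76 to 51.8 ± 1.37 CPM, -0.14, adjusted p = 0.0467), but it no longer passed after length correction. It did pass after GC correction (edgeR adjusted p = 0.0149). Over the whole list 3 of 14 (21.4%) passed, beside 33.9% of all genes.

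Collagen IV is the matrix substrate that peroxidasin crosslinks, and 3 of its 6 chains were tested. In shTST, COL4A6 rose (7.12 ± 0.994 to 9.29 ± 1.27 CPM, log2 fold change 0.39, edgeR adjusted p = 0.0172) and COL4A5 rose (17.2 ± 1.3 to 20.2 ± 1.05 CPM, 0.23, adjusted p = 0.0251). Without replicate 4 of either WT or shTST neither call held, since no gene of the list then passed. With all libraries, 2 of the 3 tested chains (66.7%) were called, beside 16.1% of all genes. Both were also called after length correction and after GC correction (edgeR adjusted p from 0.00923 to 0.0225). In overTST, COL4A5 fell (17.2 ± 1.3 to 13.6 ± 1.28 CPM, -0.34, adjusted p = 0.00279). After length correction COL4A5 was only just past the threshold (-0.21, edgeR adjusted p = 0.04985). With GC correction instead, it was called (-0.34, edgeR adjusted p = 0.00228). COL4A2 was higher (0.376 ± 0.132 to 0.73 ± 0.232 CPM, 0.92, adjusted p = 0.0342), on 54 counts over WT and 71 over overTST. COL4A2 was not called with DESeq2, nor where low counts were filtered otherwise. COL4A1, the partner of COL4A2 in the most widespread collagen IV trimer, had 4 counts in WT, 0 in shTST and 3 in overTST.

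**Figure D4:**
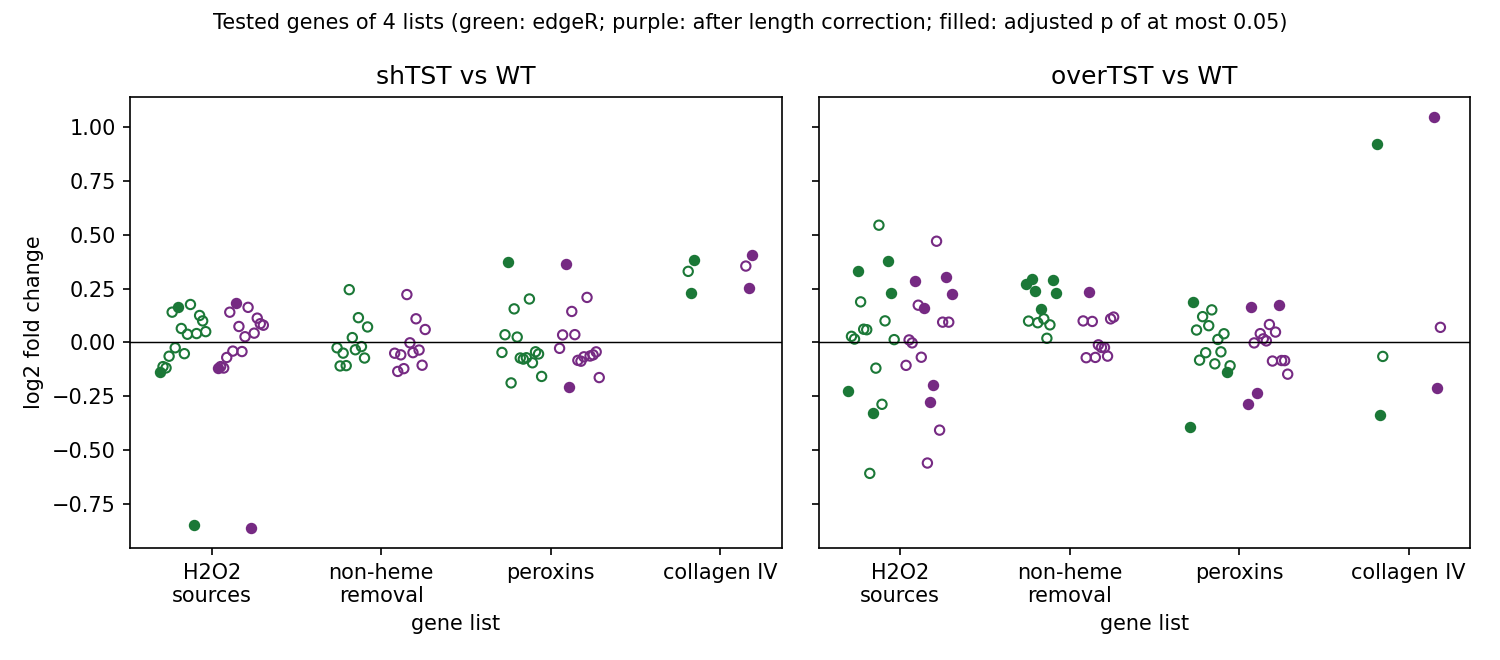
Log2 fold changes against WT of the tested genes in 4 lists, before (green) and after (purple) length correction, with filled points at an adjusted p of at most 0.05. In overTST the filled points of non-heme peroxide removal go from 6 to 1 with the correction.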

How the data were processed

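The authors deposited 1 table of raw counts for each library, with reads per Ensembl gene beside its exon positions, strand and exonic length. The submitters' processing notes list Trimmomatic 0.36, STAR 2.5.2b, featureCounts, Subread 1.5.2 and GRCh38. Use of strand is not given in the sources used here. Groups and replicate numbers came from the sample labels. Names came from a table of gene IDs (56410 of 57500) and GENCODE 29 (488 more).

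The 2 comparisons with WT each used a separate fit of 8 libraries, and shTST against overTST on all 12, with edgeR 4.0.16 (filterByExpr, TMM, quasi-likelihood test) in R 4.3.3, Benjamini-Hochberg adjustment and a threshold of 0.05. The SE of a log2 fold change was its size over the square root of the F value. RPKM and TPM used the files' exonic lengths. Log2 CPM used a prior count of 2. Single values per library went into exact permutation tests, two-sided. The procedure was tested on simulated data: of 200 genes given a log2 change of 1, edgeR called 89% in the design of shTST against WT (14476 genes) and 91% in that of overTST (14291 genes). The simulation held only genes past the count filter and no trend on length or GC content. Changes as small as those of CAT were not simulated, so it cannot say how often these would be called. Depth was 22911380 to 45120508 counts per library.

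Named genes were the 6 members, the heme peroxidase relatives, TST, per other list and comparison with WT up to 2 higher and 2 lower genes with the smallest p past the threshold, and the 3 genes most correlated with each member of mean log2 CPM of at least 1. Exceptions are stated, and some listed genes are not reported here. Members and lists were chosen with earlier results of these data known. Tests of PXDN and a CAT to PXDN ratio per library had been planned, but PXDN had 1 count, so they could not be computed and pooled counts were used. Alternatives were DESeq2 1.42.0, limma-voom (limma 3.58.1), other scalings and filters, corrections for length and GC content (lowess, span 0.3; the GC correction was added after seeing the data), a replicate block and leaving out each library. Figures used Python 3.11.15 and matplotlib 3.10.9.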

Additional observations from a re-analysis of the deposited data

How the results depend on the processing

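The 5 heme peroxidases gave no call in any comparison under any alternative or with 1 library left out. Wherever a count filter was used they were removed beforehand, so this outcome was fixed in advance. In the fit without a filter, a handful of counts would not show even a large change. For CAT, the adjusted p ran from 0.691 to 0.997 over 20 alternatives in shTST against WT, from 0.0247 to 0.42 over 20 in overTST against WT, and from 0.0332 to 0.61 over 23 in shTST against overTST. Length correction gave -0.1516 and 0.1404 in the comparisons with overTST. Same replicate numbers did not pair the libraries (correlations of their deviations from -0.0527 to 0.0801), and the replicate block with length correction gave -0.151 and 0.1384. The sign for shTST turned with upper-quartile normalization (0.01486). With 1 library left out CAT ran from -0.03699 to 0.03013 in shTST against WT, turning positive without WT replicate 3 or 4 or shTST replicate 1 or 3, from -0.1342 to -0.06926 in overTST, and from 0.06514 to 0.1202 between the lines.

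CAT group means were 65.34, 67.66 and 51.71 in TPM and 25.72, 25.76 and 23.53 RPKM without mitochondrially encoded genes. The CAT share without division by length differed by -0.4438 and 0.4735 percentage points in overTST against WT and shTST against overTST. With 1 library left out the share difference ran from -0.01513 to 0.05426 for shTST against WT, turning to -0.003461 without WT replicate 1 and -0.01513 without shTST replicate 4.

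Genes called ranged from 1513 (without shTST replicate 1) to 2336 in shTST, 3979 to 5263 in overTST and 3986 to 5265 between the lines with 1 library left out. List counts moved by at most 5 genes, and the cause was not tested. For shTST, non-heme removal went from 0 to 1 with DESeq2, upper-quartile normalization, the stricter filter or no mitochondrially encoded genes, and to 3 with the replicate block, alone or with length correction. Peroxins went from 1 to 2 with DESeq2, limma-voom, upper-quartile normalization, the replicate block or length correction, and to 3 with the last 2 together. For overTST, non-heme removal went from 6 to 1 with length correction and 2 with the replicate block added. In the same comparison, peroxins went from 3 to 1 with no filter. Collagen IV there went from 2 to 1 with DESeq2, no filter or the stricter filter, COL4A2 being the gene affected. The stricter filter removed COL4A2 before any test, so that outcome was fixed in advance. With 1 library left out, shTST counts ran from 0 to 4 for peroxide sources, 0 to 2 for non-heme removal, peroxins and collagen IV, and overTST counts from 5 to 6, 5 to 8, 1 to 3 and 1 to 2. Leaving out WT replicate 4 or shTST replicate 4 took peroxins and collagen IV in shTST to 0, as leaving out WT replicate 1 did for peroxins.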
